A study of Mus musculus with 4 samples.

Results

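Lysosomes are acidic organelles that break down glycans, lipids and proteins taken up by the cell, and macrophages use them to digest what they engulf. Their hydrolases work at low pH, which a rotary proton pump, the V-ATPase, maintains: its V1 sector burns ATP on the cytosolic side and its V0 sector carries protons through the membrane. The transcription factors TFEB and TFE3 switch on many lysosomal genes and are held in the cytosol when the nutrient-sensing kinase complex mTORC1 is active. The 40 genes described here encode lysosomal enzymes, lysosomal membrane proteins, subunits of the pump and these 2 factors. The rule takes them by name, and 39 of the 40 were measured, among 18193 genes in all. Cd63 had no match in the annotation used here.

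RNA came from bone marrow-derived macrophages of C57BL/6 background, grown for 5 days with 10% serum and 10% supernatant of L929 cells, which supplies macrophage colony-stimulating factor. One genotype was wild type (WT), and the other was the double knockout (DKO) of Hes1 and Hey1, genes for transcriptional repressors downstream of Notch. They were left untreated or given 2 ng/ml of lipopolysaccharide (LPS), a bacterial ligand of the receptor TLR4, for 3 h. Each of the 4 groups had 1 array, from RNA that was amplified and biotin-labelled. The ages of the mice, the kind of alleles and the number of animals behind an array are not given in the sources used here.

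With 1 array per group no difference has a replicate check, so neither p-values nor errors are printed. The words higher and lower, used as a call, mean a change of intensity of at least 2-fold. Values are the deposited linear intensities of a gene's brightest probe set, and a floor of 52.9 units marks the median of all probe sets. All 39 genes lay above that floor on all 4 arrays. Intensities of different genes are not compared, since each probe set has its own brightness. Some genes have several probe sets, 89 in all for the 39, and 24 had a second one above the floor on every array. For these 24 the brightest pair differed by a median log2 of 0.18 for the LPS effect in WT cells, 0.13 in DKO cells, 0.16 for DKO against WT without LPS and 0.14 with LPS. For the difference between the LPS effects of the genotypes it was 0.22. In the same order, the pair had the same sign in 13, 21, 14, 16 and 12 of the 24. Differences of that size are within the disagreement of probe sets on the same arrays.

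The 10 macrophage markers examined were above the floor on every array. Of the markers of other cell types, all 5 measured dendritic cell markers, 6 of 7 neutrophil, 4 of 5 B cell, 6 of 7 T and NK cell and 5 of 6 fibroblast markers were under the floor on all 4 arrays. Of 4 erythroid and platelet markers 3 were above it on at least 1 array, mainly Pf4, at 3964 to 6690 units. Hes1 read 26.7 to 45.4 in WT and 2.1 to 5.8 in DKO cells, and Hey1 read 17.3 to 57.2 and 9.2 to 10.2, so both were too dim to check the labels firmly. In bulk RNA, fewer cells of a type and less RNA per cell cannot be told apart.

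TFEB and TFE3 bind a DNA element known as the CLEAR element, whose core is the palindrome TCACGTGA around the hexamer CACGTG. Factors of the HES and HEY families also bind hexamers of this kind, CACGTG and CACGCG among them. RefSeq windows on GRCm38.p6, from 250 bases before to 50 after a gene start, covered 35 of the 40 genes with 41 starts. TCACGTGA occurred in 5 of these 41 windows (12.2%), against 0.974% of 32851 windows of all genes. CACGTG, which every TCACGTGA contains, occurred in 11 (26.8%, against 7.15%), and CACGCG, searched on both strands, in 3 (7.32%, against 9.27%). The windows of these genes had a median G and C content of 56.7%, against 52.7% for all. The stretches below hold TCACGTGA, in capitals, in the 5 genes that have it, and CACGTG in Sgsh, which was added because its transcript had the largest LPS effect of the 39. Each is written 5′ to 3′ on the strand of the gene.
Atp6v1a, chr16:44139349-44139426, minus strand: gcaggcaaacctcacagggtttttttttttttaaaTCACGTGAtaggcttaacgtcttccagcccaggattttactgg
Atp6v0d1, chr8:105566050-105566079, minus strand: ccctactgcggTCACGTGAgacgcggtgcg
Gla, chrX:134601158-134601255, minus strand: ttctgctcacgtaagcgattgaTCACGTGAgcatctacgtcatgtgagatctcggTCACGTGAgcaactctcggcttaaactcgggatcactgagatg
Cln3, chr7:126583316-126583393, minus strand: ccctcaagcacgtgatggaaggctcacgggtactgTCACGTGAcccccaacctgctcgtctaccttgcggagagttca
Mcoln1, chr8:3500438-3500515, plus strand: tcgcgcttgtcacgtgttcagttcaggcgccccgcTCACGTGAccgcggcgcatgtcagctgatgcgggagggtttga
Sgsh, chr11:119355511-119355574, minus strand: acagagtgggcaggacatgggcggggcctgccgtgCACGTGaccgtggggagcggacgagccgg

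The motif began 132 bases before the gene start in Atp6v1a, 122 before one of the 2 listed starts of Cln3, 46 in Mcoln1 and 29 in Sgsh. It straddled the start of Atp6v0d1, beginning 4 bases before it, and Gla held 2 copies, at 228 and 195 bases. A match of letters is a description of the window and says nothing of binding in these cells. The 11 genes with CACGTG had a median LPS effect (log2 of LPS over untreated) of -0.12 in WT and -0.24 in DKO cells, and the 23 measured genes whose windows lacked it had 0.082 and -0.19. Their ranges in WT cells overlapped, -0.996 to 0.29 and -0.686 to 0.671. The groups were not matched for brightness, with which LPS effects climbed. In WT cells the median of all genes was -0.12 at 500 to 1000 units and 0.24 at 10000 and above. The difference between the groups was not tested.

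The question of the first comparisons is how LPS changes these transcripts in each genotype. After 3 h of LPS most lysosomal transcripts stood within 2-fold of their untreated level. In WT cells none of the 39 was called, where 3.36% of 11491 genes were higher and 3.41% lower. In DKO cells none was higher and 1 was lower, Sgsh, where 4.66% of 11241 genes were higher and 4.77% lower. At 1.5-fold, 1 gene was higher and 2 lower in WT cells, against 6.93% and 12.9% of all genes. The same threshold gave 1 higher and 6 lower in DKO cells, against 8.94% and 14.5%. The median LPS effect of the 39 was 0.032 in WT cells, with 22 above and 17 below 0, and -0.23 in DKO cells, with 6 above and 33 below. The medians of all genes were -0.086 and -0.10, and 59.2% of all genes were below 0 in WT and 60.9% in DKO cells. All genes include many dim ones, and LPS effects rose with brightness. Within each band of mean intensity from 500 units up, the members' median lay below that of all genes in both genotypes. At 10000 units and above it was 0.13 against 0.24 in WT and -0.080 against 0.049 in DKO cells. The sign in WT cells was not stable: the median was -0.11 after quantile normalization, -0.088 after loess and 0.25 with array medians made equal, which moved the median of all genes by 0.21. In 16 of the 39 both LPS arrays lay below both untreated arrays, a share of 41.0% that is near the 40.1% of all genes, and in 5 both lay above, or 12.8% against 22.4%.

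**Figure D1:**
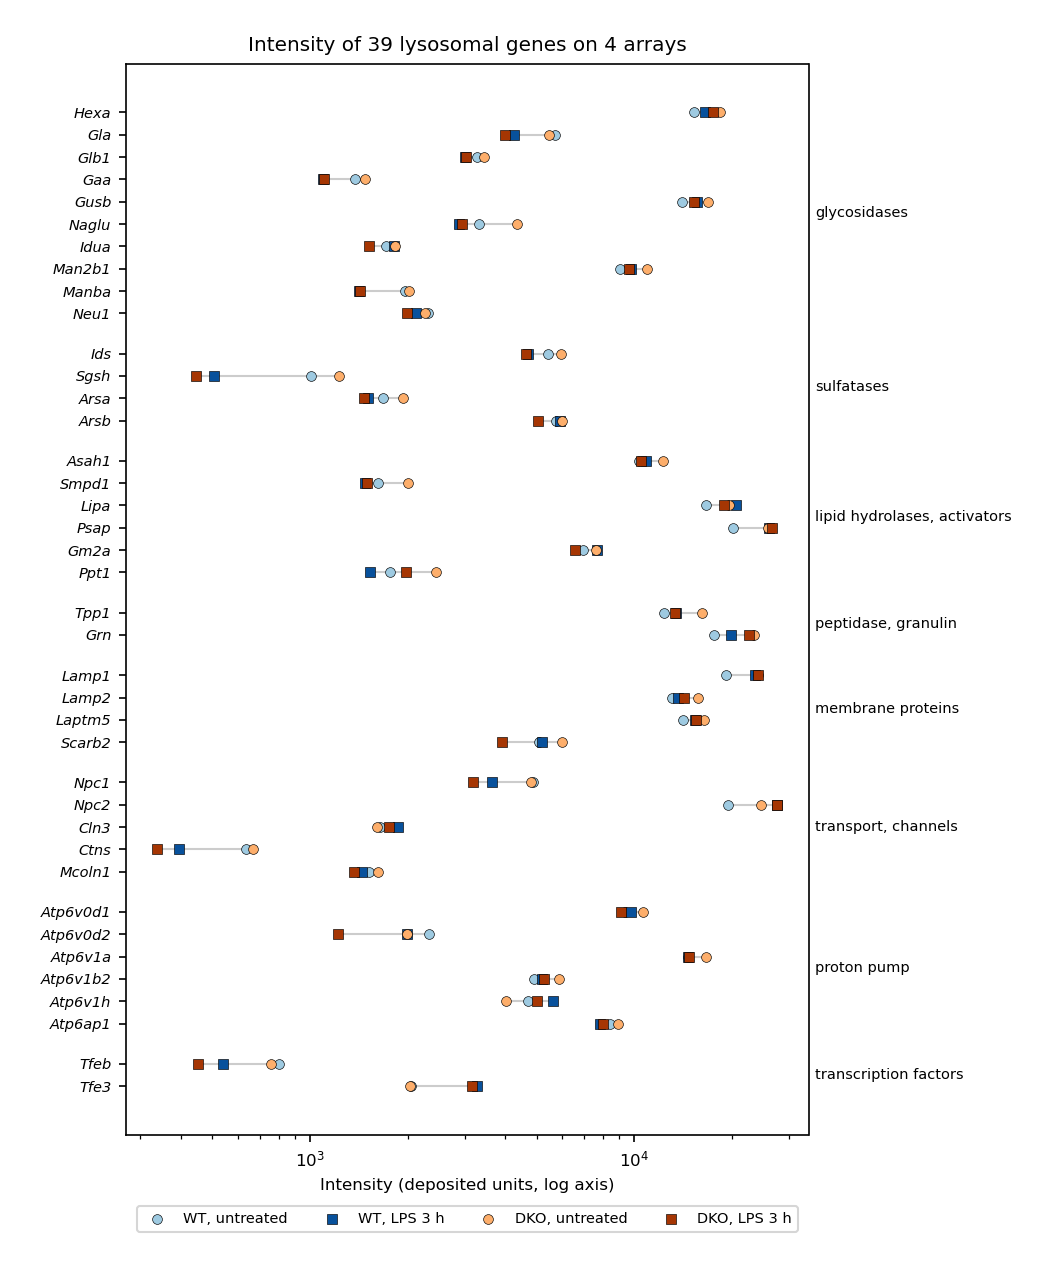
Intensity of each of the 39 genes on the 4 arrays (log axis, deposited units), grouped by role, with circles for untreated and squares for LPS-treated cells and 1 array per point. Sgsh and Ctns have both LPS squares left of both untreated circles, Tfe3 has both to the right, and for 26 of the 39 genes the untreated DKO circle is the highest of the 4 (66.7%, against 30.6% of all genes above the floor on all arrays).

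Among the sulfatases, Sgsh, the heparan sulfamidase lost in Sanfilippo syndrome type A, gave the largest LPS effect of the set. It read 1008 in untreated and 505 in LPS-treated WT cells, and 1224.5 and 445 in DKO cells. Both LPS arrays were thus below both untreated arrays, by a log2 difference of -0.996 in WT, just short of 2-fold, and -1.46 in DKO cells, which is 2.75-fold. Its second probe set was near the floor, at 43.8 to 66.0 units, and gave -0.16 and -0.27 with values under the floor held at it. By their brightest probe sets the other sulfatases differed less. Arsa, which acts on sulfatide, stood at -0.16 in WT and -0.40 in DKO cells. Ids, the iduronate sulfatase, stood at -0.21 and -0.35, and Arsb at 0.031 and -0.25. Second probe sets gave -0.33 and -0.71 for Ids and -0.33 and -0.185 for Arsb, so the direction of Arsb in WT cells was not settled.

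The 10 glycosidases cleave sugars from glycans and glycolipids. Their median LPS effects were -0.12 in WT and -0.22 in DKO cells, and all 10 were below 0 in DKO cells, where 60.9% of all genes were. Gla, the alpha-galactosidase of Fabry disease, read 5713 and 4242 in WT and 5456 and 3997 in DKO cells without and with LPS. Manba, a beta-mannosidase, read 1967 and 1416.5 in WT and 2014 and 1428 in DKO cells. By their brightest probe sets these 2 genes had nearly equal LPS effects in both genotypes, -0.43 and -0.45 for Gla and -0.47 and -0.50 for Manba. Gaa, the acid alpha-glucosidase, was similar at -0.33 and -0.42. Second probe sets gave -0.715 and -0.55 for Gla and -0.50 and -0.41 for Gaa, with the larger effect in WT cells. Naglu, which acts on heparan sulfate as Sgsh does, read 3327 and 2879 in WT against 4338 and 2934 in DKO cells, so its 2 LPS arrays almost coincided while the untreated arrays differed. Glb1 and Neu1 stood between -0.12 and -0.18 in both genotypes. Hexa, Gusb, Idua and Man2b1 were above 0 in WT cells (0.082 to 0.15) and below it in DKO cells (-0.26 to -0.075). The second probe sets of 3 of them were below 0 in WT cells as well, at -0.28 for Gusb, -0.46 for Idua and -1.59 for Man2b1.

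Lipid-degrading enzymes and their activators were Asah1 (acid ceramidase), Smpd1 (acid sphingomyelinase), Lipa (lysosomal acid lipase), Ppt1 (palmitoyl-protein thioesterase), Psap, the precursor of the saposins, and Gm2a, the GM2 activator. Their median LPS effect was 0.11 in WT and -0.22 in DKO cells. Psap read 20120 and 25999 in WT and 25822 and 26538 in DKO cells, and Lipa read 16630 and 20633, then 19656 and 18880. By these probe sets the untreated WT array was the lowest of the 4 in both genes. The second probe set of Psap read 11033 and 11577, then 14505 and 11893, with untreated DKO cells apart from the rest. Another of Lipa read 17497 and 17165, then 20086 and 17195, so there untreated WT cells were not the lowest. Gm2a gave 0.14 in WT and -0.22 in DKO cells by its brightest probe set, but its second, at 462 to 959 units, gave -1.05 and -0.43, so its probe sets disagreed on the direction in WT cells. The peptidase gene Tpp1 stood at 0.12 and -0.27, and Grn, whose product progranulin is processed in lysosomes, at 0.17 and -0.051. The second probe set of Tpp1 gave -0.049 and -0.32. That of Grn gave 0.17 and -0.017, but another about as bright gave -0.015 and 0.15, with both signs turned.

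Among the membrane proteins Lamp1, a main glycoprotein of the lysosomal membrane, read 19226 and 23511 in WT and 24086 and 24139 in DKO cells without and with LPS. Lamp2 and Laptm5 had LPS effects of 0.056 and 0.12 in WT and -0.14 and -0.085 in DKO cells, while their second probe sets gave -0.031 and -0.18 in WT and -0.017 and 0.008 in DKO cells. Scarb2, an abundant lysosomal membrane protein that also acts as a sorting receptor, read 5068 and 5183 in WT but 5997 and 3903 in DKO cells, an LPS effect of 0.032 against -0.62. Its second probe set, almost as bright, read 4819 and 4543 in WT and 4879 and 4101 in DKO cells, an LPS effect of only -0.085 and -0.25.

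Npc1 and Npc2 export cholesterol from lysosomes together, Npc2 as the soluble carrier and Npc1 as the membrane protein, and neither transcript passed 2-fold. Npc1 read 4860 and 3651 in WT and 4813 and 3171 in DKO cells without and with LPS, both LPS arrays lower, by -0.41 and -0.60. Npc2 read 19437 and 27646 in WT and 24658 and 27613 in DKO cells, both LPS arrays higher, by 0.51 and 0.16. After loess Npc2 stood nearer 0, at 0.25 and 0.054, and Npc1 at -0.46 and -0.58, a narrower gap between the pair. Other probe sets of Npc2 disagreed: one at 14190 to 18050 units gave 0.35 and 0.065, and one at 2610 to 4020 units gave -0.065 and -0.24. The direction of Npc2 was therefore not settled. Ctns, the cystine exporter, read 637 and 396 in WT and 668 and 337 in DKO cells, with LPS effects of -0.69 and -0.98, the latter just short of 2-fold. Mcoln1, the lysosomal calcium channel TRPML1, stood at -0.073 and -0.24 by its brightest probe set and at 0.069 and 0.24 by its second, so its direction was not settled. Cln3, a membrane protein lost in juvenile Batten disease, stood at 0.18 and 0.12.

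Of the proton pump, Atp6v1a and Atp6v1b2, the catalytic and nucleotide-binding subunits of V1, had LPS effects of 0.005 and 0.091 in WT and -0.17 and -0.15 in DKO cells. The second probe set of Atp6v1a gave 0.058 and -0.22, but that of Atp6v1b2, at 1614 to 2663 units, gave -0.72 in WT and -0.48 in DKO cells. Atp6v1h, a regulatory V1 subunit, read 4708 and 5596 in WT and 4018.5 and 5016 in DKO cells, higher with LPS in both, by 0.25 and 0.32. Its second probe set, at 50.8 to 157 units, gave 0.39 and a bound of -0.48. Atp6ap1, an accessory subunit, stood at -0.096 and -0.15. The V0 subunit d exists as a widely expressed form, Atp6v0d1, and a form typical of osteoclasts and macrophages, Atp6v0d2. Atp6v0d1 read 9360 and 9799 in WT and 10676 and 9124 in DKO cells, whereas Atp6v0d2 read 2329 and 1994 in WT and 1995 and 1221 in DKO cells. Atp6v0d2 was thus lowest on the DKO array with LPS, with LPS effects of -0.22 and -0.71. Its second probe set read 1612 and 913 in WT and 1112 and 719 in DKO cells, also lowest with LPS in DKO, but there the larger LPS effect was in WT cells, -0.82 against -0.63.

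Neither transcription factor passed 2-fold with LPS. Tfeb read 801 and 539 in WT and 757 and 452 in DKO cells, and its LPS effects were -0.57 and -0.74. Tfe3 read 2053 and 3269 in WT and 2030 and 3148 in DKO cells, at 0.67 and 0.63. Each gene has 1 probe set, both LPS arrays of each lay on the same side of both untreated arrays, and the directions held under equal array medians, quantile normalization and loess (-0.74 to -0.36 for Tfeb and 0.61 to 0.89 for Tfe3). Tfe3 was the only member past 1.5-fold upward in either genotype.

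**Figure D2:**
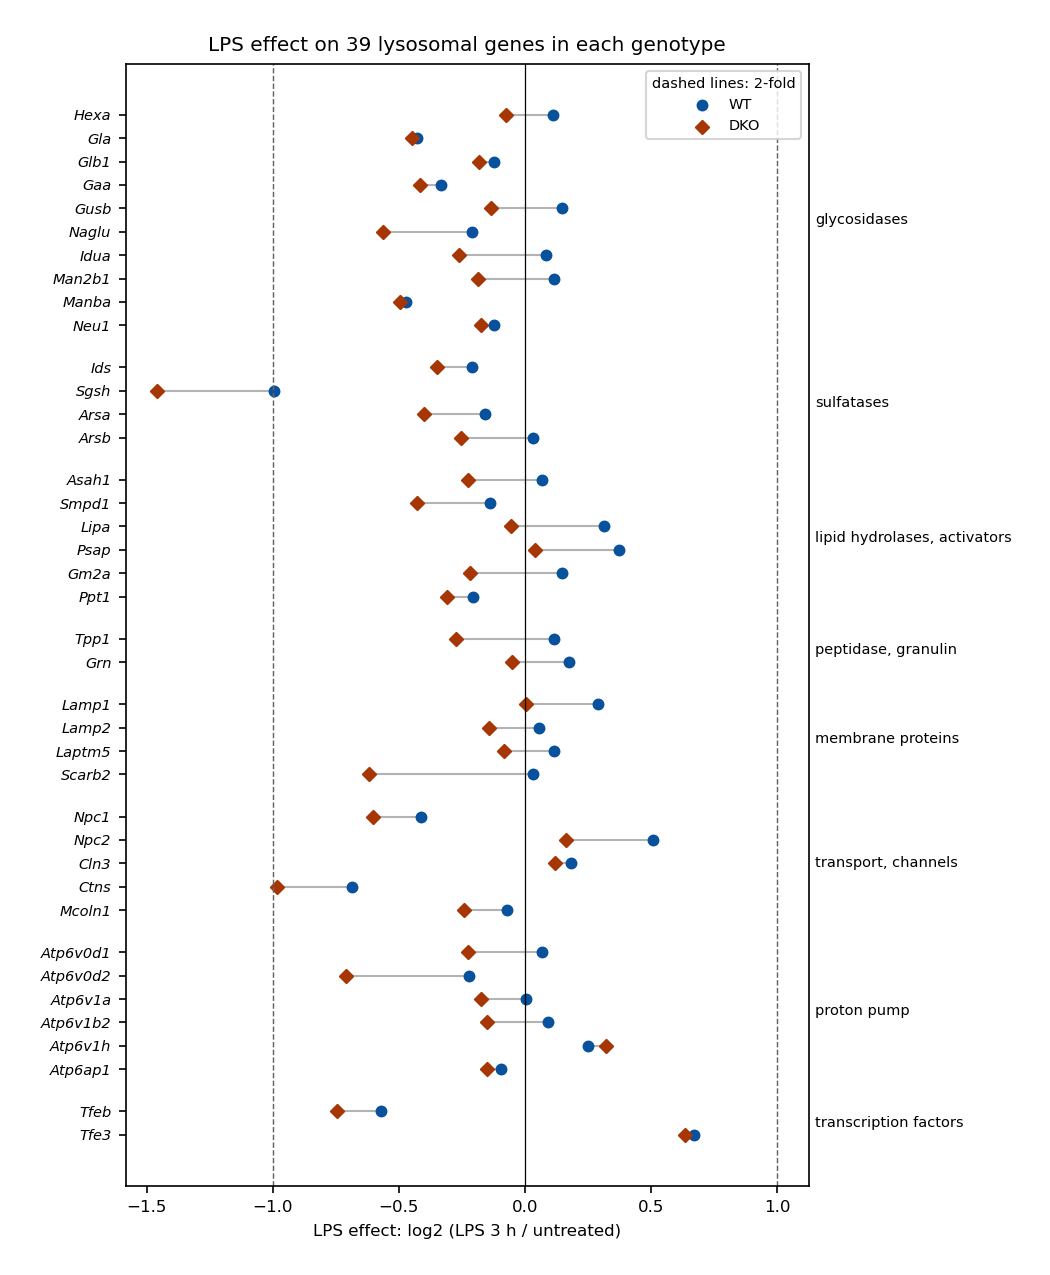
LPS effect (log2 of LPS over untreated) of each of the 39 genes in WT (circles) and DKO cells (diamonds), 1 pair of arrays per point, with dashed lines at 2-fold. Sgsh in DKO cells, at -1.46, is the only point past a dashed line, and for 38 of the 39 genes the DKO point lies left of the WT point.

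The next comparison asks what loss of Hes1 and Hey1 does to these genes in untreated cells. Without LPS most lysosomal transcripts read slightly higher in DKO cells, and none reached 2-fold, where 0.466% of 11380 genes were higher and 0.984% lower. None reached 1.5-fold either, where 2.36% of all genes were higher and 4.96% lower. The difference was above 0 for 31 of 39 genes (79.5%), against 47.0% of all genes, with a median log2 of 0.19 against -0.017. By their brightest probe sets all 4 sulfatases, all 6 lipid hydrolases and activators, Tpp1 and Grn and all 4 membrane proteins were above 0. The second probe sets of Arsb (-0.375), Smpd1 (-0.29), Gm2a (-0.23), Ids (-0.22) and Laptm5 (-0.042) were below 0. The other second probe sets in these groups were above 0. The highest differences were those of Ppt1 (1760 in WT and 2440 in DKO cells, 0.47), Grn (17658 and 23334, 0.40), Naglu (0.38), Tpp1 (12384 and 16120, 0.38), Psap (0.36), Npc2 (0.34) and Lamp1 (0.33). The second probe set of Ppt1 gave 0.37, that of Tpp1 0.32 and that of Psap 0.39. Grn gave 0.23 by its second probe set and -0.083 by another that was about as bright. Over the 24 genes with a second probe set above the floor, that probe set gave a median of 0.11, with 16 above 0 and 8 below. Below 0 were Gla, Neu1, Npc1, Cln3, Atp6v0d2, Atp6v1h, Tfeb and Tfe3, the lowest being Atp6v1h (-0.23) and Atp6v0d2 (-0.22). By second probe sets Gla (0.32), Neu1 (0.12) and Cln3 (0.056) were above 0, and Atp6v0d2 (-0.535) and Atp6v1h (-0.70) below.

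The brightness of the probe sets moved with this difference. Over the 344 genes whose mean reached 10000 units, the median of DKO over WT without LPS was 0.16, and the 12 lysosomal genes among them had 0.26. In the band from 5000 to 10000 units the medians were 0.083 for 604 genes and 0.16 for 8 members, and from 2000 to 5000 units 0.036 for 1730 genes and -0.016 for 7 members. The highest intensity was 35237 on the untreated WT array and 41474 to 43964 on the others. Normalization by quantiles or loess, which removes such a trend, left a median of 0.11 in either case, with 30 of 39 genes above 0. Macrophage markers moved the same way: 10 of 10 were above 0, with a median of 0.32, and their summed intensity was 87869 in WT and 109441 in DKO cells without LPS. The summed intensity of 7 progenitor and mast cell markers was 1182 and 624, mainly through Cd34 (876 and 361). Kit (161 and 155) and Gata2 (98.3 and 91.0) hardly differed, and Flt3, Cpa3, Fcer1a and Mcpt8 were under the floor on all arrays. The part of these cell markers in the result was not tested.

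**Figure D3:**
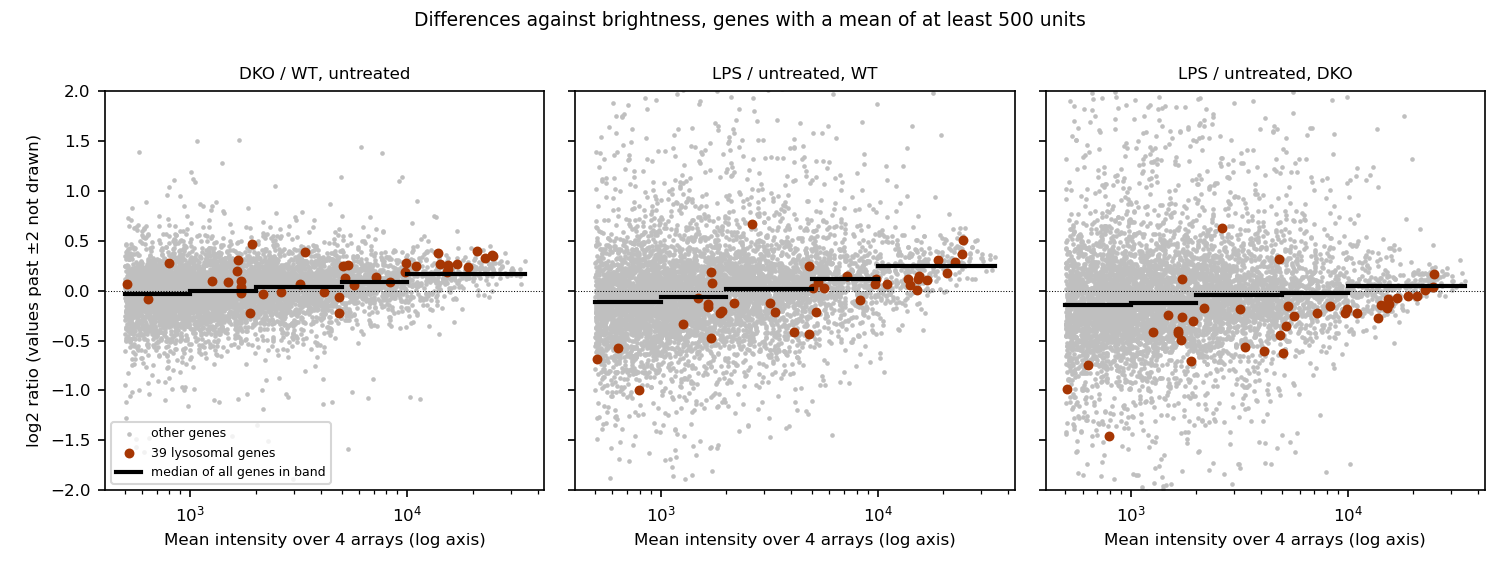
Log2 ratio against the mean intensity over 4 arrays (log axis) for all genes of at least 500 units, in untreated DKO over WT cells and for LPS in each genotype; red points are the 39 lysosomal genes and black bars the median of all genes in each brightness band. The bars climb with brightness, to 0.16, 0.24 and 0.049 at 10000 units and above, and in that band the members' medians were 0.26, 0.13 and -0.080.

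With LPS, DKO and WT cells hardly differed in these genes. None of 39 passed 2-fold, where 0.845% of 11236 genes were higher and 0.934% lower, and the median was -0.023 against -0.040 for all genes, with 15 genes above and 24 below 0. Atp6v0d2 was the 1 gene past 1.5-fold, where 4.03% of all genes were higher and 5.03% lower, at 1994 in WT and 1221 in DKO cells (-0.71, or -0.35 by its second probe set). Scarb2 followed at -0.41 (-0.15 by its second). Ppt1 was again the highest, 1526 against 1971 units (0.37, or 0.22 by its second probe set), so it stood higher in DKO cells with and without LPS. Sgsh, Ctns and Tfeb, the genes lowest with LPS, differed between the genotypes by -0.18, -0.23 and -0.25.

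The last comparison, the difference between the LPS effects of the genotypes (DKO minus WT), combines the same 4 arrays and is not independent of the results above. None of 39 passed 2-fold in either direction, against 1.31% of 9982 genes higher and 0.721% lower. It was below 0 for 38 of 39 genes, against 56.4% of all genes, with a median of -0.24 against -0.047. At 1.5-fold 1 was lower, Scarb2, where 5.22% of all genes were higher and 4.41% lower. Atp6v1h was the exception to the direction, at 0.071. Scarb2 (-0.65), Atp6v0d2 (-0.48), Sgsh (-0.46) and Tpp1 (-0.39) had the lowest values. By second probe sets Scarb2 was at -0.17, Tpp1 at -0.27 and Atp6v0d2 on the other side of 0, at 0.19, while Sgsh had no value. Genes of at least 10000 units had a median of -0.19, and members among them -0.28. After loess the median of the 39 was -0.16 with 34 below 0, and after quantile normalization -0.13 with 36 below 0. Over the 24 genes with a second probe set, that probe set gave a median of -0.017 with 12 below 0, so the small shift was not seen by both probe sets.

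**Figure D4:**
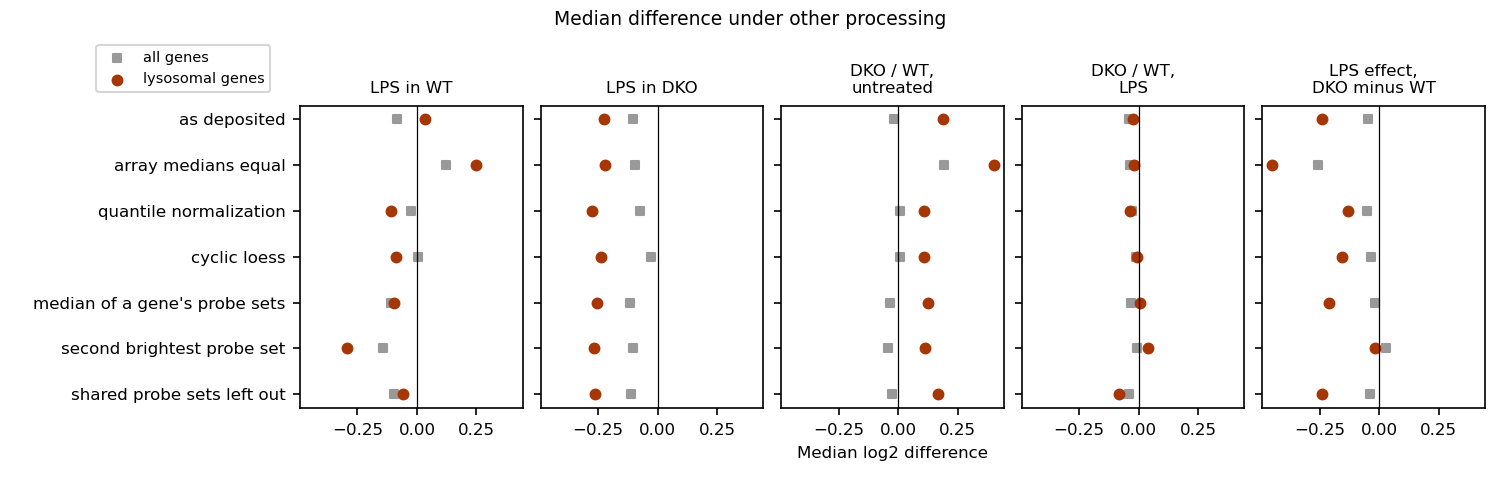
Median log2 difference of the lysosomal genes (red circles) and of all genes (grey squares) in the 5 comparisons, as deposited and under 6 other ways of processing. The LPS effect in DKO cells keeps a median of -0.27 to -0.22 throughout, whereas that in WT cells runs from -0.29 to 0.25.

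The wider pathway was read through lists of other genes with known roles in lysosomes, nutrient sensing and autophagy. Mitf and Tfec, the other members of the TFEB family, were higher with LPS in both genotypes, by 1.20 and 1.20 for Mitf (2543 and 5839 in WT, 3115 and 7179 in DKO cells) and 2.07 and 2.58 for Tfec (1467 and 6160, then 1201 and 7159). Of 14 measured genes of mTORC1 and the Rag GTPase machinery, 3 were lower in both genotypes and none higher. Of all genes, 3.41% were lower in WT and 4.77% in DKO cells. The 3 were Fnip2 (-1.45 in WT and -2.22 in DKO cells), Flcn, the folliculin gene (-1.15 and -1.13), and Rragd, the RagD gene (-1.04 and -1.11). By their brightest probe sets the other 11 stayed within 2-fold. Fnip1 among them stood at -0.26 in WT and -0.89 in DKO cells, but its second probe set passed 2-fold in both (-1.16 and -1.02). Flcn in WT cells was short of 2-fold with equal array medians (-0.94) and by its second probe set (-0.68), and Rragd in WT cells under each of the 3 other scalings (-0.98 to -0.83). The list median was -0.082 in WT and -0.34 in DKO cells, against -0.086 and -0.10 for all genes.

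Other lysosomal genes gave a similar mixture. For the counts that follow, 3.36% of all genes were higher and 3.41% lower with LPS in WT cells, and 4.66% and 4.77% in DKO cells. Of 17 other pump subunits, 13 had a value in WT and 12 in DKO cells, and none passed 2-fold in either genotype, as few would at those shares. Among 14 other hydrolases, the phospholipase gene Pla2g15 was lower with LPS in both genotypes (-1.17 and -1.52), though short of 2-fold in WT with equal array medians (-0.95). The nuclease gene Dnase2a was lower in WT cells (-1.14) at 0.23 in DKO cells, a call lost under each of the 3 other scalings (-0.97 to -0.91). The acid phosphatase gene Acp2 passed 2-fold upward in DKO cells by a narrow margin, from 1593 to 3232 units, and not after quantile normalization (0.998). Of 20 other membrane proteins with a value in WT cells, 2 were lower, the nucleoside transporter gene Slc29a3 (-1.20 in WT, or -0.98 with equal medians, and -1.65 in DKO cells) and the amino acid transporter gene Slc36a1 (-1.26 and -1.34). Tpcn1, an endolysosomal channel gene, joined them in DKO cells (-1.06, or -0.98 after loess). The channel gene Mcoln2 was higher in both, 1047.5 and 2383 in WT and 863 and 2124 in DKO cells (1.19 and 1.30).

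**Figure D5:**
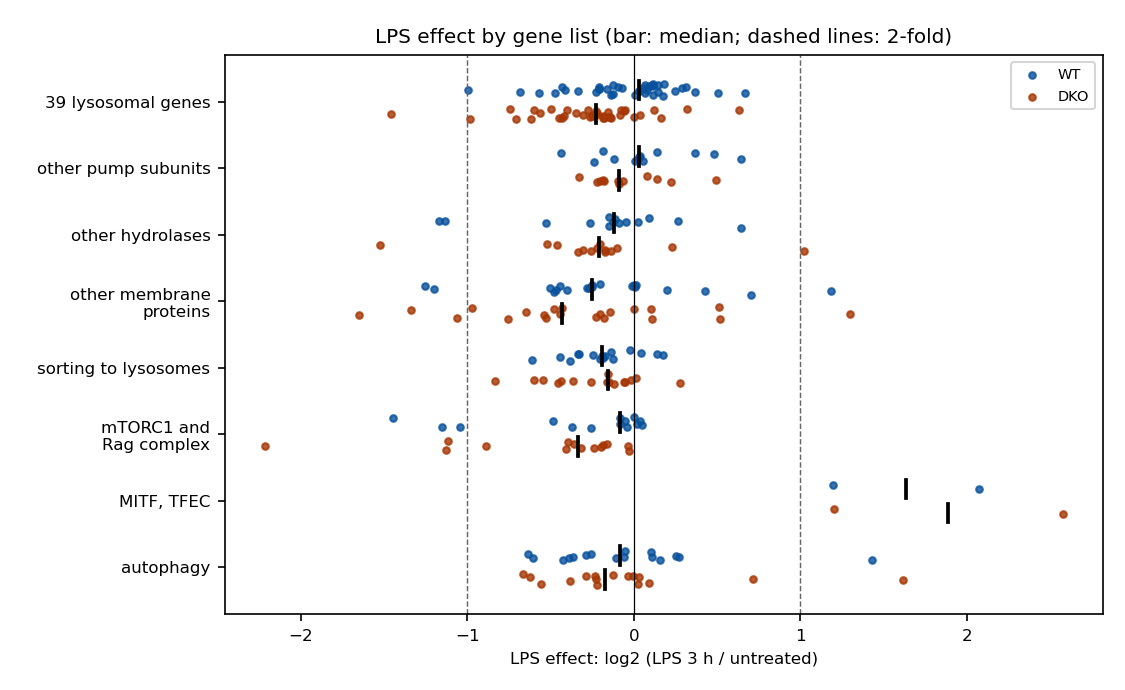
LPS effect (log2) of the 39 lysosomal genes and of 7 other gene lists in WT (blue) and DKO cells (red), 1 point per gene and genotype, with bars at the medians and dashed lines at 2-fold. Sgsh in DKO cells is the only point of the 39 past a dashed line, and the lowest points of the other lists are those of Fnip2, at -1.45 and -2.22.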

How the data were processed

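The authors deposited 1 linear intensity per probe set and array for 45101 probe sets. From the values, each array had a trimmed mean of 500.0 (2% trimmed at either end), so the arrays had been scaled before deposit. The tool is not named in the sources used here. The 64 control probe sets were left out and, by the platform annotation 34945 probe sets named 1 gene, 932 more than one and 9160 none. Symbols were taken by Entrez identifier from a RefSeq table (GRCm38.p6) for 34741 probe sets, whether or not the symbol changed. Each gene was represented by its brightest probe set on average. Values under 52.9 units, the pooled median, were set to that floor, log2 was taken, and single arrays were subtracted, with no test. The difference of LPS effects was taken where all 4 arrays were above the floor. The number of arrays limits the precision. The members and lists were chosen with earlier results of these data known. All members could be named, and from other lists genes past 2-fold and the largest differences. The rule for sequences was members with TCACGTGA, to which Sgsh was added after its values were seen. The subtraction and floor were tested on simulated data. The alternatives tried were array medians made equal, quantile normalization, cyclic loess (limma 3.58.1, R 4.3.3, 3 iterations), floors at the 35th and 65th percentile, an offset of 16 units with no floor, other choices of probe set and thresholds of 1.5-fold and 3-fold. Python 3.11.15 with pandas 2.3.3 was used.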

Additional observations from a re-analysis of the deposited data

Results flagged for a closer look

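The median LPS effect of the 39 lysosomal genes had opposite signs in the genotypes, 0.032 in WT and -0.225 in DKO cells, and this difference was not tested. The sign in WT cells turned under quantile normalization (-0.11) and loess (-0.088).

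Dnase2a, a lysosomal nuclease gene, was lower with LPS in WT cells and slightly higher in DKO cells, at 405.5 and 184 against 172 and 201 units, a difference of LPS effects of 1.36 that was not tested. It rests on 1 probe set and on the untreated WT array, where it was highest, and it was 1.16 with array medians equal and 1.30 after loess. Dnase2a had no value when probe sets with names ending in _s_at, _x_at or _a_at were left out.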

How the results depend on the processing

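The floor never touched the 39 genes, so other floors changed none of their values. The median LPS effect in WT cells was 0.25 with array medians equal, -0.11 after quantile normalization, -0.088 after loess, -0.096 when a gene's probe sets were summarised by their median and -0.29 with the second brightest probe set. Equal medians also moved the median of all genes there by 0.21, gave 0.40 for DKO over WT without LPS and -0.45 for the difference of LPS effects, which was -0.13 after quantile normalization and -0.017 with the second brightest probe set. With the median of probe sets 2 genes were lower with LPS in WT cells (Gm2a and Ppt1) and 1 lower in DKO against WT with LPS (Atp6v1h). The calls of Ppt1 (177 and 52.4 units) and Atp6v1h (157 and 50.8 units) were bounds, with 1 array under the floor. With the second brightest probe set 2 were lower with LPS in WT (Man2b1 and Gm2a). Leaving out probe sets with names ending in _s_at, _x_at or _a_at, here called shared, left 32 members with a value in WT and 31 in DKO cells. It gave 1 lower in WT (Man2b1) and 3 in DKO cells (Sgsh, Man2b1 and Mcoln1). The brightest probe sets of Man2b1 and Mcoln1 were among those left out, and their replacements read 178 to 613 and 59.8 to 191 units. The shares of all genes past 2-fold were not counted under these choices of probe set. A threshold of 1.5-fold gave 1 higher and 2 lower with LPS in WT, 1 higher and 6 lower in DKO, 1 lower for DKO over WT with LPS and 1 lower for the difference of effects. At 3-fold 0 were lower with LPS in DKO cells. Sgsh in DKO cells stayed past 2-fold under all 8 other scalings, floors and probe set choices that gave it a value (-1.46 to -1.33). Its second probe set alone was not among these, since its LPS-treated WT array was under the floor. In DKO cells that probe set read 66.0 and 54.6 units, close to the floor, and gave -0.27, short of 2-fold. No paired analysis was possible because each group has 1 array and the labels carry no replicate numbers.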

Other observations

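Genes of autophagy and of sorting to lysosomes were read beside the 39. Of all genes, 3.36% were higher and 3.41% lower with LPS in WT cells, and 4.66% and 4.77% in DKO cells. Of 16 autophagy genes, 1 passed 2-fold with LPS, Sqstm1, the gene of the cargo receptor p62, at 7304 and 19684 in WT and 6796 and 20892 in DKO cells (1.43 and 1.62). Map1lc3b stood at -0.054 and -0.22, Uvrag at -0.64 and -0.66 and Wipi1 at -0.60 and -0.56. Of 16 genes for delivery to lysosomes none passed 2-fold, and the lowest was Vps18, a subunit of the HOPS and CORVET tethering complexes (-0.61 in WT and -0.83 in DKO cells). The mannose 6-phosphate receptor gene M6pr was at 0.17 and 0.28.

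Several members had a dim probe set with a larger LPS effect than their brightest one. For Man2b1 it read 552 and 184 in WT and 613 and 178 in DKO cells, an LPS effect of -1.59 and -1.78 against 0.11 and -0.19 by the brightest. For Mcoln1 a probe set at 59.8 to 191 units gave -0.88 and -1.68. Lamp2 gave 0.056 and -0.14 by its brightest probe set and -0.75 and -0.35 by another, which read 6908 and 4108 in WT cells. Which transcripts these probe sets read was not examined.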
